A study of Homo sapiens with 9 samples.

Results

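The chorionic gonadotropin β genes are 6 related copies, CGB1, CGB2, CGB3, CGB5, CGB7 and CGB8, which sit side by side on chromosome 19. They were selected on the read counts themselves, because these differed between TGF-β-treated and control LX-2 cells, so that every value of that contrast describes the choice and carries no test. The members were found by gene symbol in the deposited count table, singly and as a sum, and all 6 were among its 20777 listed genes. LX-2 is an immortalised human hepatic stellate cell line, and all 9 libraries came from it and are labelled with 1 wild-type genotype. Of the 3 groups of 3 libraries, the TGF-β group is labelled with TGF-β treatment at day 1, the TGF-β + uridine group with both agents at day 1, and the control group rests on titles alone, since its labels name no treatment. The study used these cells to ask how uridine, a nucleoside, acts on stellate cells activated by TGF-β, a growth factor that drives fibrosis. Because the labels do not say whether the 3 libraries of a group came from separate cultures, p-values measure only the spread between these libraries.

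Human chorionic gonadotropin is a glycoprotein hormone made of an α chain, encoded by CGA, and a β chain, encoded by the CGB genes. The placental syncytiotrophoblast secretes it in early pregnancy, where it keeps the corpus luteum producing progesterone. The β genes arose by duplication of LHB, the gene of the luteinizing hormone β chain, which lies at one end of the cluster. CGB3, CGB5, CGB7 and CGB8 encode the hormone chain, whereas CGB1 and CGB2 carry a different first exon and promoter. Outside the placenta, β chain RNA is known from various tumours, often without the α chain.

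In the GRCh38 annotation (GENCODE v29), the 6 genes spanned 35.992 kb of chromosome 19. By rising coordinate, the order was CGB3 (chr19:49022869-49024333, minus strand), CGB2 (chr19:49031912-49033238, plus strand), CGB1 (chr19:49035610-49036895, minus strand), CGB5 (chr19:49043884-49045311, plus strand), CGB8 (chr19:49047638-49049106, minus strand) and CGB7 (chr19:49054275-49058860, minus strand). All 6 are protein-coding. Promoters of 3 copies are shown because CGB8 held most reads, CGB5 came next and CGB2 stands for the copies with the other first exon. The 250 bases before the RefSeq start (GRCh38.p14) are printed 5′ to 3′ on the gene's strand for CGB8 (chr19:49049112-49049361), CGB5 (chr19:49043598-49043847) and CGB2 (chr19:49031640-49031889), with the letters of the GC box, of the GC-rich SMAD string and of the cAMP response element in capitals, spelled out after the sequences and marked on whichever strand they occurred.
CGB8: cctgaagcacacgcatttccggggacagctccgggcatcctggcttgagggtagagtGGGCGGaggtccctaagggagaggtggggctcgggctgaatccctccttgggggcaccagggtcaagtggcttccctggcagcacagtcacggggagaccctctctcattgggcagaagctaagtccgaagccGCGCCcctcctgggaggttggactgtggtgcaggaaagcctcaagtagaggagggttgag
CGB5: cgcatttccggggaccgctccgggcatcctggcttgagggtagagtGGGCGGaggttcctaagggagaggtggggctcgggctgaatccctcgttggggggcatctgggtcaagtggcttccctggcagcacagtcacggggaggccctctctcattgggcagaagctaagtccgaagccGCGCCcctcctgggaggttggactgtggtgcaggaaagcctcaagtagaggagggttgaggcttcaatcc
CGB2: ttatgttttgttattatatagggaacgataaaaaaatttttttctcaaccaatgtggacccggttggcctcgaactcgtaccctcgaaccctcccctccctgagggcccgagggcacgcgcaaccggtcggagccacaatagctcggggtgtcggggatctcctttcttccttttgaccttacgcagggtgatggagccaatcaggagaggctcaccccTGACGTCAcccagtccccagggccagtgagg

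The CGB8 and CGB5 promoters were 97.5% identical over 239 aligned bases, and CGB3 was 97.9% identical to CGB8 over 240. CGB1 and CGB2 matched each other at 85.5% over 214 aligned bases. The CGB7 promoter (chr19:49057750-49057999), which lies within the GENCODE gene, matched no other copy over more than 53 bases (62.3% with CGB8). GGGCGG, the GC box that SP1 binds, occurred 1 time each in CGB3, CGB5 and CGB8, 2 times in CGB7 and in neither CGB1 nor CGB2. The same letters were found in 42.6% of the 35116 promoters of the table. TGACG, 1 arm of the cAMP response element, occurred 2 times each in CGB1 and CGB2, on opposite strands of 1 palindrome, and in 21.2% of all promoters. None of the other 4 copies held it. GGCGC, a GC-rich letter string that SMAD proteins bind, occurred in all copies except CGB2 and in 44.5% of all promoters. CAGAC, the other SMAD letter string searched, occurred in CGB7 alone (38.0% of all promoters), as did GCCNNNGGC, the AP-2 letters (19.8%). The AP-1 letters TGANTCA were in none of the 6 windows (6.6% of all promoters). These matches describe letters and not occupied sites.

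The libraries held 40539751 to 41210439 reads on genes in the control group, 40795655 to 41467124 in the TGF-β group and 40954559 to 41413233 in the TGF-β + uridine group. CPM, reads scaled to a common library size, were normalized with edgeR's TMM factors, which ran from 0.820 to 1.16. The floor of 3 counts was worth 0.0629 to 0.0889 normalized CPM. Control replicate 1 stood apart, with the lowest TMM factor and the steepest slope of log2 CPM on gene GC content (13.8 log2 units per unit GC fraction, against 4.08 to 10.5 in the other 8 libraries). The CGB8 transcript had 65.1% GC, above 96.3% of the tested genes with a GC value. Fitted differences of the CGB genes from control are therefore given with and without that library.

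CGB8 held most of the family's reads. It had 13, 6 and 9 reads in the control libraries, 387, 352 and 351 in the TGF-β libraries, and 314, 400 and 342 in the TGF-β + uridine libraries. No treated library came near the control range. In normalized CPM its level was 0.239 ± 0.129 (SD, n = 3) in control, 8.93 ± 0.692 (SD, n = 3) with TGF-β and 8.49 ± 1.71 (SD, n = 3) with TGF-β and uridine. The fitted log2 difference of TGF-β from control was 5.24 (SE 0.36), and that of TGF-β + uridine from control was 5.17 (SE 0.36). Without control replicate 1 they were 5.71 and 5.62, without control replicate 2 4.98 and 4.91, and without control replicate 3 5.11 and 5.03. In RNA from whole cultures, more cells with CGB RNA and more CGB RNA per cell cannot be told apart.

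CGB8 was a barely detected gene in the controls and a moderately expressed one after treatment. Its deposited FPKM value, which is per length, was 0.256 ± 0.0950 (SD, n = 3) in control, 9.97 ± 0.585 (SD, n = 3) with TGF-β and 9.64 ± 1.22 (SD, n = 3) with TGF-β and uridine. By mean FPKM, 11131 of the 20777 listed genes lay above it in the control group and 3785 in the TGF-β group. In the TGF-β + uridine group 3879 genes did.

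**Figure D1:**
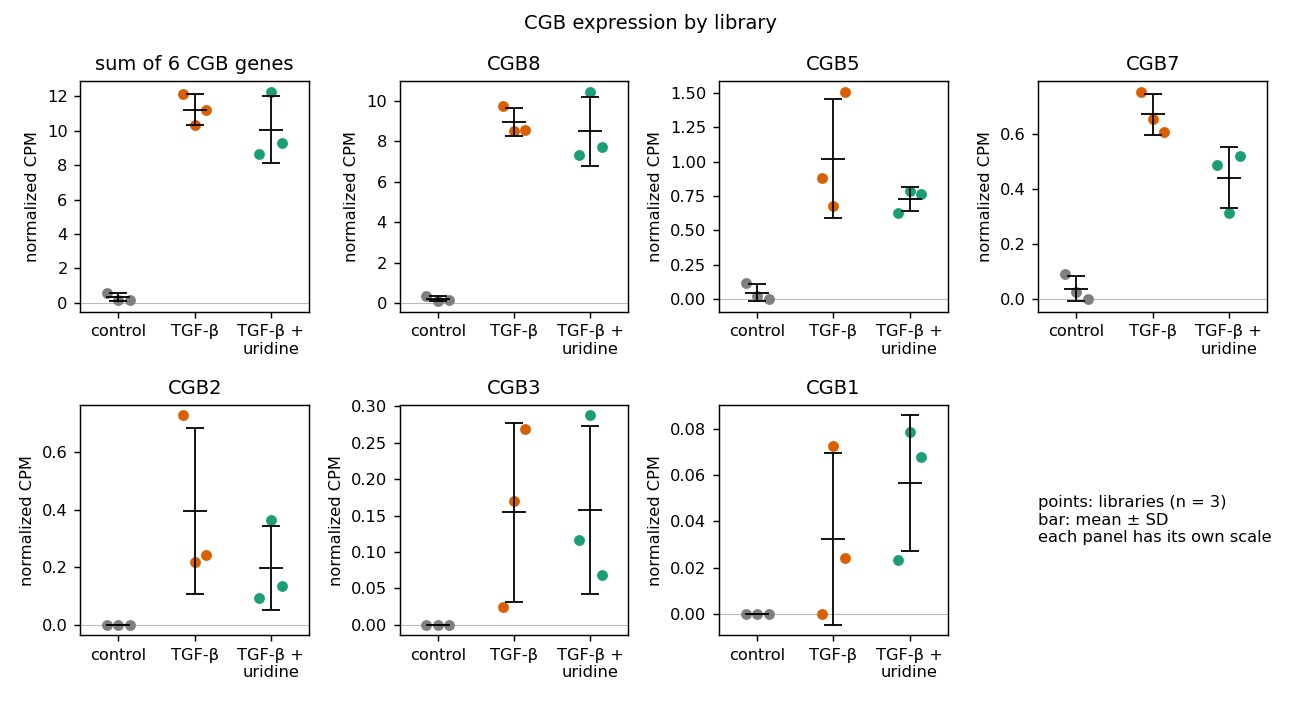
Normalized CPM (y axis) of the summed CGB reads and of each copy in the 3 groups (x axis); points are libraries, and black bars are the mean ± SD of 3. Every treated library lies above the controls for the sum and for CGB8, CGB5, CGB7, CGB2 and CGB3, for CGB3 by as little as 1 read against 0. The genes were selected on the contrast of TGF-β with control, and 9.72% of tested genes lay above the controls with TGF-β and 10.5% with TGF-β and uridine. The TGF-β and TGF-β + uridine points overlap in every panel except that of CGB7.

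CGB5, another hormone-encoding copy, had 4, 1 and 0 reads in the control libraries, 35, 28 and 62 in the TGF-β libraries and 27, 30 and 34 in the TGF-β + uridine libraries. Its groups did not overlap between control and treatment, and its highest value came from TGF-β replicate 3. CGB7, the most diverged of the hormone copies, had 3, 1 and 0 reads in control, 30, 27 and 25 with TGF-β and 21, 12 and 23 with TGF-β and uridine. The fitted log2 differences of TGF-β from control were 4.50 (SE 0.77) for CGB5 and 4.21 (SE 0.71) for CGB7. With TGF-β and uridine against control they were 4.01 for CGB5 and 3.60 for CGB7. Without control replicate 1 the TGF-β differences were 6.17 for CGB5 and 5.57 for CGB7, and without control replicate 3 they were 3.86 and 3.57. For TGF-β and uridine they were 5.67 and 4.95 without control replicate 1, and 3.37 and 2.97 without control replicate 3.

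The other 3 copies had no read in any control library. CGB2 had 29, 9 and 10 reads in the TGF-β libraries and 4, 14 and 6 in the TGF-β + uridine libraries. CGB3, a hormone copy nearly identical to CGB8, had 1, 7 and 11 reads and then 5, 11 and 3. CGB1 had 0, 3 and 1 reads and then 1, 3 and 3, so that it stayed at or under the floor of 3 counts in every library. Against a floor of 3 counts over the 3 control libraries, CGB2 was at least 16.2-fold higher with TGF-β and at least 7.87-fold higher with TGF-β and uridine. For CGB3 the bounds were at least 6.40-fold and at least 6.23-fold higher. With 1 library left out at a time, the lowest CGB2 bounds were 9.49-fold without TGF-β replicate 1 and 4.71-fold without TGF-β + uridine replicate 2. The lowest CGB3 bounds were 3.93-fold without control replicate 3 and 3.77-fold without TGF-β + uridine replicate 2. These bounds allow for counting error in the control reads only. They take the treated reads as counted and leave out the spread between libraries.

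Together, the 6 copies held 20, 8 and 9 reads in the control libraries, 482, 426 and 460 with TGF-β and 372, 470 and 411 with TGF-β and uridine. Summed normalized CPM was 0.324 ± 0.233 (SD, n = 3), 11.2 ± 0.906 (SD, n = 3) and 10.1 ± 1.94 (SD, n = 3), respectively. The control group's highest library was control replicate 1, the one that stood apart. The fitted log2 difference of TGF-β from control was 5.15 (SE 0.43) for the sum and 5.86 without control replicate 1. For TGF-β + uridine against control it was 4.99 (SE 0.43) for the sum and 5.69 without that library.

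Of the 6 copies, 4 passed edgeR's filter on low counts (CGB2, CGB5, CGB7 and CGB8), and they could pass through the treated groups alone. Over the 13384 genes tested, 2.42% were called higher and 0.964% lower with TGF-β than in control at an adjusted p under 0.05 (edgeR). Every TGF-β library lay above every control library for 9.72% of genes. For TGF-β + uridine against control, 2.89% were called higher, 2.44% lower, and 10.5% lay above the controls without overlap. All 4 filtered copies lay above the controls without overlap in both contrasts, and they were selected on that of TGF-β against control. The 2 contrasts share the control libraries.

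The comparison that the choice of members did not use was TGF-β + uridine against TGF-β, although it shares the TGF-β libraries with the choice. None of the 4 copies tested was called by edgeR, and CGB1 and CGB3 were not tested. The summed CGB level was 0.898-fold with uridine, a log2 difference of -0.16 (SE 0.34, 95% interval -0.93 to 0.62, adjusted p = 0.993 by edgeR, two-sided). An exact permutation test of normalized CPM gave p = 0.5, where 3 libraries against 3 cannot give less than 0.1. The interval leaves room for a fall to 0.526-fold and a rise to 1.53-fold. Over all 13384 genes, 0% were called higher with uridine and 0.0448% (6 genes) lower by edgeR. At an unadjusted p under 0.05, 623 genes were higher and 554 lower.

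By copy, CGB8 differed by -0.07 on the log2 scale (SE 0.28, 95% interval -0.71 to 0.56, adjusted p = 0.995 by edgeR). The interval for CGB5 ran from -1.79 to 0.81 around -0.49 (adjusted p = 0.944 by edgeR). CGB7 had a log2 difference of -0.60 (95% interval -1.80 to 0.60, adjusted p = 0.870 by edgeR). Its 3 TGF-β + uridine libraries, at 0.314 to 0.520 normalized CPM, all lay below its 3 TGF-β libraries, at 0.609 to 0.755. The exact permutation p was 0.1, the smallest possible, and 12.8% of all tested genes showed the same lack of overlap. CGB2 had the widest interval, from -2.76 to 0.74 around -1.01 (adjusted p = 0.829 by edgeR). Without TGF-β replicate 1, which held 29 of the 48 CGB2 reads in its group, the CGB2 difference was -0.23, and without TGF-β + uridine replicate 2 it was -1.77. The CGB5 difference was -0.10 without TGF-β replicate 3.

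**Figure D2:**
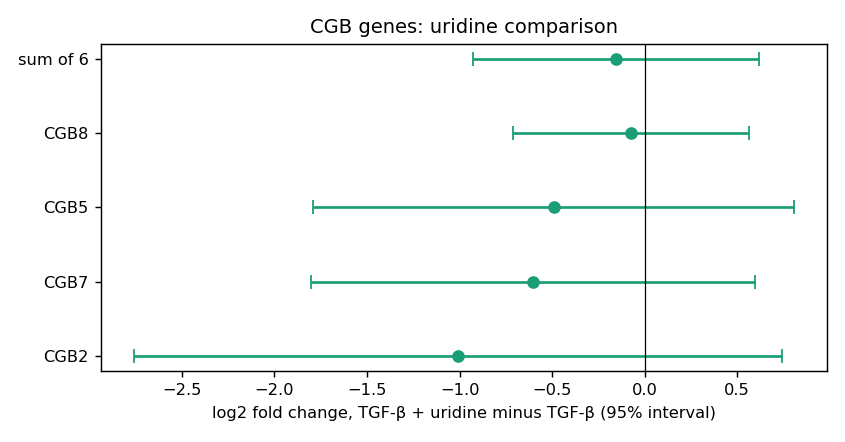
Fitted log2 fold change of TGF-β + uridine minus TGF-β (x axis) for the summed CGB reads and the 4 copies tested (y axis); bars are 95% intervals from edgeR with 3 libraries a group. All 5 intervals cross 0, and that of CGB8 is the narrowest.

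The composition of the CGB reads was compared next, since it does not depend on their level. CGB8 made up 76.3% to 82.6% of the CGB reads in the TGF-β libraries (mean 79.7%) and 83.2% to 85.1% in the TGF-β + uridine libraries (mean 84.2%). The 2 ranges did not overlap. The difference of 4.50 percentage points had an exact permutation p of 0.1 (n = 3 and 3), the smallest that this design allows. Leaving out 1 library at a time moved it between 2.78 points, without TGF-β replicate 3, and 5.94 points, without TGF-β replicate 2. Among the reads of the 4 hormone-encoding copies alone, the ranges overlapped (78.2% to 85.4% and 85.1% to 88.3%), and the difference was 3.44 points (exact permutation p = 0.2).

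In the control group, CGB8 accounted for 28 of 37 CGB reads, or 75.7% (exact binomial 95% interval 58.8% to 88.2%). That interval contained the CGB8 shares of both treated groups, so that no difference in the CGB8 share was detectable at this depth. By library, the control shares were 65%, 75% and 100%, of 20, 8 and 9 reads. CGB5 made up 9.14% of the pooled CGB reads with TGF-β and 7.26% with TGF-β and uridine. CGB7 made up 5.99% and 4.47%, CGB2 3.51% and 1.92%, CGB3 1.39% and 1.52%, and CGB1 0.292% and 0.559%. Binomial intervals cover counting error only.

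**Figure D3:**
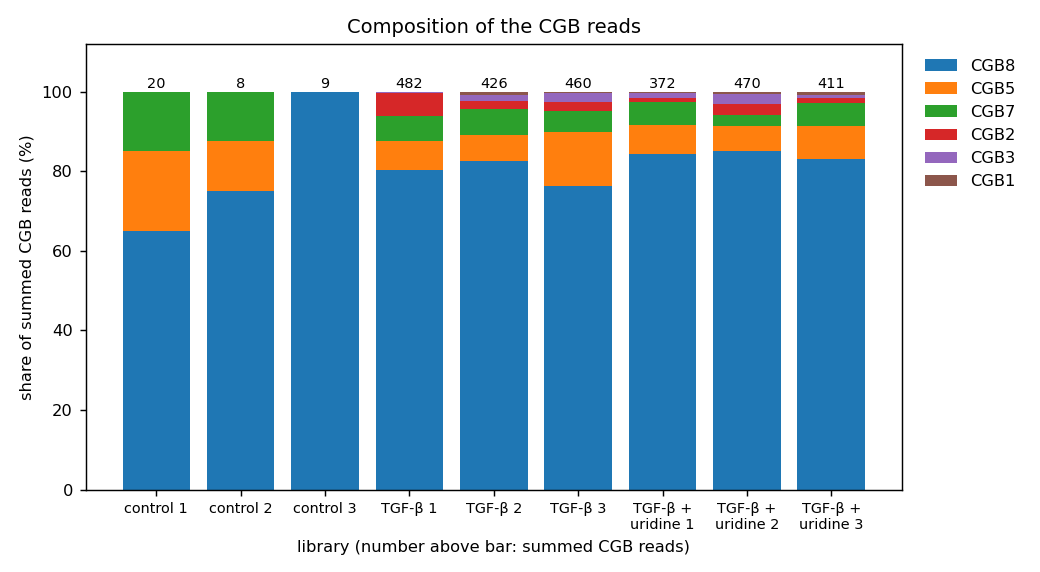
Share of the summed CGB reads (y axis, %) that each copy held in each of the 9 libraries (x axis), with the summed reads above each bar. CGB8 is the largest segment in every library, and the 3 control bars rest on 20, 8 and 9 reads.

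Per length, the order of the copies in the TGF-β group was CGB8 (9.97 FPKM), CGB5 (1.16 ± 0.508), CGB2 (0.373 ± 0.263), CGB7 (0.309 ± 0.0282), CGB3 (0.176 ± 0.141) and CGB1 (0.0371 ± 0.0423; mean ± SD, n = 3). The ranges over libraries of CGB2 and CGB7 overlapped, and CGB3 overlapped both CGB2 and CGB7. CGB1 and CGB3 overlapped as well. The ranges of CGB8 and CGB5 lay apart from each other and from those below. In the TGF-β + uridine group the means were 9.64 for CGB8, 0.840 for CGB5, 0.211 for CGB7, 0.186 for CGB2, 0.175 for CGB3 and 0.0652 for CGB1 FPKM, so that CGB7 and CGB2 stood in the opposite order, with overlapping ranges.

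How far reads can be told apart between copies sets how firmly these orders hold. Transcripts of CGB3, CGB5 and CGB8 were 99.1% to 99.5% identical, and CGB7 was 96.8% to 97.0% identical to them. CGB1 and CGB2 were 98.8% identical to each other and 77.3% to 81.6% to the other 4. Of the windows of 100 bases along each transcript, the share found in no other annotated gene, apart from models that overlap a CGB gene, was 84.9% for CGB7, 54.0% for CGB1, 53.1% for CGB2, 37.8% for CGB3, 35.8% for CGB8 and 28.6% for CGB5. With windows of 50 bases these shares were 76.8%, 43.4%, 42.4%, 20.4%, 17.2% and 14.0%, and with 150 bases CGB8 reached 47.7%. The read length and the handling of reads that match several copies are not given in the sources used here, so that the split between single copies is uncertain.

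CGB3 and CGB8 had similar room for reads of their own, with 294 and 280 such windows of 100 bases. Over the 3 TGF-β libraries, however, CGB3 held 19 reads and CGB8 held 1090. CGB7 had 1571 such windows and 82 reads. In the same annotation, a further gene model, AC008687.1 (chr19:49022953-49036895), spans CGB1, CGB2 and most of CGB3, and AC008687.7 and AC008687.8 overlap CGB7. None of these models was listed in the count table, and how reads in the overlaps were assigned was not tested.

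**Figure D4:**
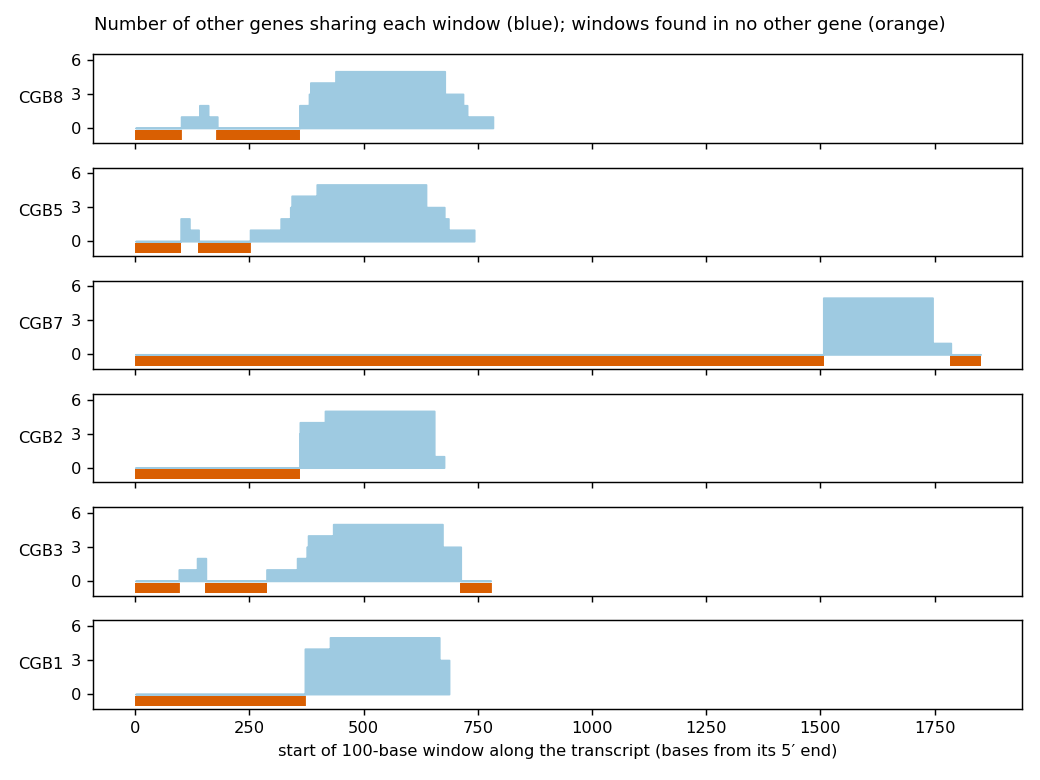
For each copy, the number of other genes (y axis, blue) that contain the window of 100 bases starting at each position of its transcript (x axis, bases from the 5′ end), with windows found in no other gene marked in orange. Each copy has such windows towards its 5′ end, most of all CGB7, with 1571 of 1850, and CGB5 has the smallest share, with 212 of 742.

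The remaining genes of the hormone family were hardly seen. Of 9 genes on the list (α and β chains of the glycoprotein hormones and their receptors), 1, LHB, was in the count table, and it did not pass the filter. LHB had no read in the control libraries, 4, 2 and 15 reads with TGF-β and 1, 6 and 1 with TGF-β and uridine. Its highest count was in TGF-β replicate 3, which also held the most CGB5 and CGB3 reads of its group. The LHB transcript was 92.2% to 92.4% identical to those of CGB3, CGB5, CGB7 and CGB8, and at 50 bases it shared windows with all 6 copies. CGA, whose product pairs with the β chain, was not among the listed genes and was not analysed here.

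Other products of the placenta were read in the same fits. Of 41 genes listed, 27 were in the count table and 14 were tested, of which 1 rose and 1 fell with TGF-β against control, where 2.42% of all tested genes rose and 0.964% fell. DESeq2 called 3 of them and limma on log2(FPKM + 1) called 4. An edgeR fit with a GC term (the GC slope of each library, added after seeing the data) called 6. Over all genes, DESeq2 called 719, limma 850 and the fit with a GC term 2715. TFPI2, a protease inhibitor made in quantity by placenta, rose by a log2 difference of 0.95 (SE 0.11, adjusted p = 0.00175 by edgeR), from 11.8 ± 0.731 to 22.8 ± 0.516 normalized CPM (SD, n = 3). ALPP, the placental alkaline phosphatase, fell by 1.64 on the log2 scale (SE 0.15, adjusted p = 0.000427 by edgeR), from 138.9 ± 27.8 to 44.6 ± 2.88 normalized CPM (SD, n = 3). The median log2 difference of the 14 was -0.16, beside -0.05 over all genes tested.

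The pregnancy-specific glycoproteins PSG4 and PSG5, whose genes also lie on chromosome 19, had log2 differences of 0.63 and 0.66 and were not called (adjusted p = 0.265 and 0.395 by edgeR). With TGF-β and uridine against control, 1 of the 14 rose (TFPI2, 0.89) and 2 fell, beside 2.89% and 2.44% of all tested genes. Those that fell were ALPP (-2.26) and ALPG (-2.83), a germ cell alkaline phosphatase. In this contrast DESeq2 called 3 of the 14, limma on log2(FPKM + 1) called 4 and the fit with a GC term called 6. Over all genes they called 1103, 1484 and 4162. The ALPG call was lost without control replicate 2 or 3, without TGF-β replicate 2 and without each of the 3 TGF-β + uridine libraries in turn. Between TGF-β + uridine and TGF-β, edgeR called 0 of the 14, with 2 at an unadjusted p under 0.05. DESeq2 called 0, limma on log2(FPKM + 1) called 1 and the fit with a GC term called 3. Over all genes, DESeq2 called 117, limma 298 and the fit with a GC term 2554.

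A list of 29 transcription factors known from CGB genes or trophoblast had 27 genes in the table and 23 tested, and with TGF-β against control 4 rose and 1 fell, beside 2.42% and 0.964% of all tested genes. JUN, a subunit of AP-1, rose most, by a log2 difference of 2.45 (SE 0.12, adjusted p = 1.56e-05 by edgeR). JUNB, another AP-1 subunit, rose by 1.30 and ETS2, an ETS factor, by 0.69. HAND1, a helix-loop-helix factor of trophoblast giant cells, rose by 1.03 (adjusted p = 0.0227 by edgeR), a call lost without control replicate 2, without each of the 3 TGF-β libraries in turn and without TGF-β + uridine replicate 1, and with only the 2 groups in the fit. TFAP2A, an AP-2 factor, fell by 0.63 (adjusted p = 0.00728 by edgeR), and this call was lost without each of the 3 TGF-β libraries in turn and by limma. The SMAD genes SMAD2, SMAD3 and SMAD4, which carry the TGF-β signal, had log2 differences of -0.07, -0.45 and 0.12, and none was called.

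With TGF-β and uridine against control, 3 of the 23 rose (JUN 2.12, JUNB 1.08, ETS2 0.58) and 4 fell (GATA3 -1.90, FOS -1.49, TFAP2A -0.67, SMAD3 -0.50), beside 2.89% and 2.44% of all tested genes. The GATA3 and SMAD3 calls were kept under 8 and 4 of 16 alternatives. Both were lost without control replicate 2 or 3, TGF-β replicate 2 or each TGF-β + uridine library in turn, and that of SMAD3 also without TGF-β replicate 1 or 3. The list's median was -0.07 in the TGF-β contrast and -0.11 in this one, beside -0.05 and -0.01 over all genes tested. Between TGF-β + uridine and TGF-β, edgeR called 0 of the 23, with 4 at an unadjusted p under 0.05. DESeq2 and limma each called 1, and the fit with a GC term called 8. Over all genes, DESeq2 called 117, limma 298 and the fit with a GC term 2554. FOS, the AP-1 partner of JUN, had the smallest edgeR adjusted p of the list in that contrast, with a log2 difference of -1.02 (SE 0.15, adjusted p = 0.0992 by edgeR).

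The genes around the cluster were read for the same contrasts. Of 41 other annotated genes within 250 kb, 21 were in the count table and 14 were tested. With TGF-β against control, where 2.42% of all tested genes rose and 0.964% fell, edgeR called 0 of the 14, with 2 at an unadjusted p under 0.05. Over all 13384 genes tested, 896 were higher and 727 lower at that unadjusted p. DESeq2 called 1 of the 14 and limma on log2(FPKM + 1) called 2, beside 719 and 850 over all genes. The log2 differences of the 14 ran from -0.91 for PLEKHA4 (adjusted p = 0.0909 by edgeR), a phosphoinositide-binding protein, to 0.15 for NTF4. Their median was -0.25, beside -0.05 over all genes tested. NTF4, a neurotrophin, is the nearest tested gene beyond CGB7, and its level was 0.352 normalized CPM with TGF-β. On the other side, LHB is the nearest listed gene but was not tested. Of the tested genes there, RUVBL2 (-0.13) and GYS1 (-0.26) lie nearest. Farther out, FTL, the ferritin light chain, differed by -0.42 and the apoptosis gene BAX by -0.13.

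Between TGF-β + uridine and TGF-β, edgeR called 0 of the 14 neighbours, with 1 at an unadjusted p under 0.05, and DESeq2 and limma called 0. With TGF-β and uridine against control, edgeR also called 0, with 3 at an unadjusted p under 0.05. Over all 13384 genes tested, 1215 were higher and 1145 lower at that unadjusted p. DESeq2 called 1 neighbour and limma 3, beside 1103 and 1484 over all genes. The fit with a GC term called 6 of the 14 neighbours with TGF-β against control, 3 with uridine against TGF-β and 7 with both agents against control. In the same order, it called 2715, 2554 and 4162 of all 13384 genes tested.

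**Figure D5:**
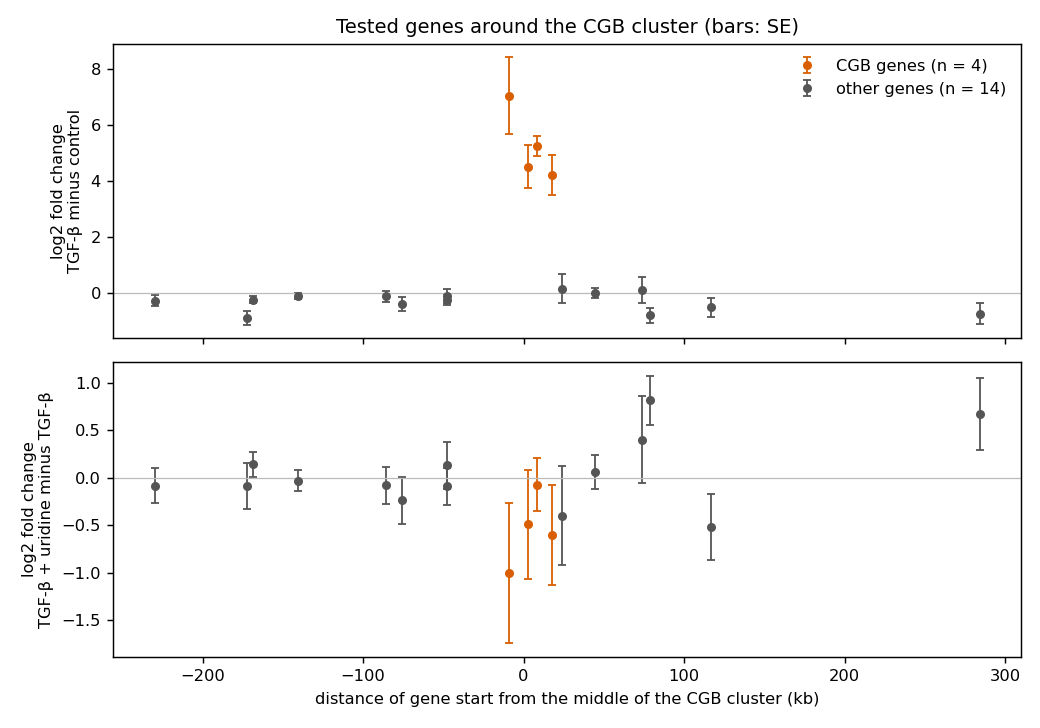
Fitted log2 fold change (y axis; bars are SE) of the 4 tested CGB genes (orange) and the 14 tested neighbours (grey) against the distance of the gene's start from the middle of the cluster (x axis, kb), for TGF-β minus control (top) and TGF-β + uridine minus TGF-β (bottom). In the top panel the neighbours lie between -0.91 and 0.15 and the CGB genes above 4; the CGB2 value there, against controls at 0, depends on edgeR's prior count.

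Cell type markers were read as a check of the labels. All 15 stellate cell and fibroblast markers were listed, with a summed level of 2002 to 2200 normalized CPM in control, 3815 to 3896 with TGF-β and 3335 to 3694 with TGF-β and uridine. VIM held the largest part, with means of 1084, 1832 and 1601 normalized CPM in that order, followed by COL5A1, SPARC and THY1. At the low end, LUM had 0 to 17 reads a library, DCN 14 to 84 and COL3A1 17 to 102. Of the 14 tested, 6 rose with TGF-β against control, beside 2.42% of all tested genes, among them ACTA2, the smooth muscle actin of activated stellate cells (1.58). COL1A2, which encodes a chain of type I collagen, had 1 read in all 9 libraries, although COL1A1, the other chain, had 1794 to 3089 reads a library. Whether the cells are the line on the label was not tested beyond these markers. The 5 listed hepatocyte markers summed to at most 0.366 normalized CPM.

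Of 11 trophoblast markers, 8 were listed, and their sum ran from 1381 to 2616 normalized CPM in control, 3030 to 3165 with TGF-β and 2058 to 2796 with TGF-β and uridine. KRT7, an epithelial keratin with 65298 to 128005 reads a library, made up nearly all of it. TFAP2C had 261 to 461 reads a library, GATA3 8 to 55, PSG1 7 to 40 and HLA-G 0 to 5. ERVW-1, GCM1 and PAGE4 had 1, 2 and 1 reads in all 9 libraries, and CGA, CSH1 and XAGE2 were not listed. Of the 4 tested, edgeR called 0 with TGF-β against control, with 2 at an unadjusted p under 0.05, namely KRT7 and GATA3. Over all 13384 genes tested, 896 were higher and 727 lower at that unadjusted p. The log2 differences were 0.71 for KRT7, -1.70 for GATA3, -0.90 for PSG1 and 0.0050 for TFAP2C. The part of other cell types in the CGB values was not tested beyond these levels. Among macrophage markers, CSF1R rose (2.04) while CD163 was near 0. CD68, with 1181 to 1580 reads a library, differed by 0.32 and was not called (adjusted p = 0.486 by edgeR). Among endothelial markers, PECAM1 differed by 0.91 and was not called (adjusted p = 0.168 by edgeR). CDH5 fell (-3.88), a call that 6 of 16 alternatives kept and that was lost without control replicate 2 or without each of the 6 treated libraries in turn.

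The genes whose log2 CPM followed that of the summed CGB reads most closely over the 9 libraries were taken from 10932 genes. Among the first 10 by Pearson's r were KRT14, KCNJ18, FHL2, SLCO2A1, P2RY2, ARHGEF18, KCNJ12, CSF1R and CLDN4, with r from 0.998 to 0.993. KRT14, a basal epithelial keratin, had 5.04 ± 2.33, 41.1 ± 1.71 and 40.4 ± 6.23 normalized CPM (SD, n = 3) in control, with TGF-β, and with TGF-β and uridine. SLCO2A1, a prostaglandin transporter, had 1.97 ± 0.605, 16.8 ± 0.557 and 18.0 ± 3.32 normalized CPM (SD, n = 3) in the same order. These r values are a description, since all points share the step between control and treated libraries. Within the 6 treated libraries, r of these 9 genes with the summed CGB reads ran from 0.319 to 0.841. KCNJ18 and KCNJ12 are near-identical copies, between which reads may be split.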

How the data were processed

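Total RNA of 9 LX-2 libraries was sequenced by a commercial provider. The authors deposited whole-number counts by gene symbol, without normalization, and FPKM values, which scale each count by gene length and library total. The submitters' processing notes name fastp, HISAT2, HTSeq, R 3.2.0 and build GRCh38.p13; read length, strandedness, annotation and the handling of multi-mapped reads are not given in the sources used here. Libraries were grouped by their labels, and no per-sample column was left unused.

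Quasi-likelihood fits of edgeR 4.0.16 (R 4.3.3; TMM scaling after filterByExpr) covered 1 model of 3 groups with all 9 libraries, with a second fit that had the 6 CGB rows replaced by their sum. P-values were two-sided and adjusted by the Benjamini-Hochberg method over 13384 genes (threshold 0.05). Normalized CPM divides counts by the TMM-scaled library size. Single values were compared by exact permutation tests. DESeq2 1.42.0, limma 3.58.1 on log2(FPKM + 1), RLE scaling, no filter, 2 groups only, a replicate block, each library left out and, added after seeing the data, a GC term were alternatives. The fits were tested on simulated data with 200 changed genes, none of them at mean levels as low as those of CGB2, CGB5 and CGB7. The model's common biological coefficient of variation was 0.289.

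Windows and identities come from the GENCODE v29 transcript closest in length to the length behind each gene's FPKM values (for LHB, the longest), with models that overlap a CGB gene left out of the window search, and promoters from RefSeq (GRCh38.p14; all 6 members matched). The text names the 6 members, called or exemplary members of 4 gene lists, and the 10 genes most correlated with the sum among genes whose mean log2 CPM was 0 or more; 1 of these 10 is not reported here. Members and lists were chosen with earlier results of these data known.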

Additional observations from a re-analysis of the deposited data

How the results depend on the processing

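The uridine difference of the summed CGB reads kept its sign and stayed uncalled under all 16 alternatives (log2 -0.32 to -0.06, adjusted p from 0.596 to 1 by edgeR, DESeq2 or limma). The same held for CGB2, CGB5 and CGB7, and for CGB8 except that its log2 difference turned to 0.024 without TGF-β + uridine replicate 1 (range over left-out libraries -0.25 to 0.024). The CGB8 share difference kept its sign under 7 of 7 alternatives (2.78 to 5.94 points, exact permutation p from 0.1 to 0.2). Against control, the summed CGB log2 difference was 3.31 with TGF-β and 3.20 with TGF-β and uridine on the log2(FPKM + 1) scale, whose pseudocount compresses low values. Leaving out 1 library gave 4.87 to 5.86 and 4.71 to 5.69, the highest without control replicate 1 and the lowest without control replicate 3.

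Counts of called genes moved far more. They were 453 for TGF-β, 6 for uridine and 714 for both agents in the fit reported. DESeq2 gave 719, 117 and 1103, fits of only the 2 groups compared 229, 317 and 222, limma 850, 298 and 1484, and the GC term, chosen after seeing the data, 2715, 2554 and 4162. Leaving out 1 library gave 218 to 1085, 0 to 271 and 304 to 2413, each highest without control replicate 1. The cause was not tested.

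The labels do not say whether equal replicate numbers pair the libraries. Deviations from the group mean correlated from -0.21 to 0.56 between same-numbered libraries, not all above 0.1. Between differently numbered libraries they correlated from -0.66 to 0.63. With 3 libraries a group, these correlations cannot decide whether the libraries were paired. With the replicate block edgeR called 314, 0 and 437 genes, and the summed CGB uridine difference was -0.14 (adjusted p = 1.00). The block also ended the calls of ALPG, GATA3 and SMAD3 with both agents and of HAND1 and CDH5 with TGF-β. Fits of only the 2 groups ended those of ETS2, TFAP2A, GATA3 and SMAD3 with both agents and of HAND1 and CDH5 with TGF-β. The low control counts, 37 CGB reads in all, limit every fold against control.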
